A study of Mus musculus with 8 samples.

Results

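Isorhamnetin and tamarixetin are plant flavonols, each an O-methylated form of quercetin, and they are isomers that differ in which of the neighbouring hydroxyl groups of the same ring carries the methyl group. They were treated here as 1 class: the 2 isorhamnetin arrays and the 2 tamarixetin arrays, 4 of the 8 arrays in the series, were compared with the 2 control arrays for changes common to both isomers. The cells were J774.1, a BALB/c mouse macrophage-like line, exposed to 10 µM isorhamnetin (label IR), 10 µM tamarixetin (TAM) or 1 µM Torin1, an mTOR kinase inhibitor, for 6 h. The labels do not state the handling of the control cells (Ctrl) or any vehicle. Each group held 2 arrays, described as biological replicates of a single cell line, and the p-values measure the spread between these arrays. The 2 Torin1 arrays entered the fit for their spread and are no part of the comparison.

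Flavonols are known to act on several macrophage programmes. The transcription factor NRF2 drives genes of glutathione synthesis, thioredoxin recycling and haem breakdown after electrophilic stress. The aryl hydrocarbon receptor binds many flavonoids and drives xenobiotic-metabolising genes. Interferon-stimulated genes are kept at a basal level in macrophages by autocrine type I interferon, and NF-kB drives cytokines such as interleukin 1 beta.

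Each array's 75th percentile of signal, to which all levels below are relative on a log2 scale, lay between 317.9 and 403.4 intensity units, and 41.4% to 52.1% of probes were well above background, lowest on the tamarixetin arrays (41.4% and 41.9%) and highest on the isorhamnetin arrays (49.1% and 52.1%). Spot outliers numbered 69 to 84 on the control and isorhamnetin arrays and 175 and 177 on the tamarixetin arrays. Replicate arrays correlated at 0.994 to 0.998 over genes, and the SD of the log2 difference between replicates was 0.23 for control, 0.24 for isorhamnetin and 0.38 for tamarixetin. Control and isorhamnetin arrays lay in the first row of the slide and tamarixetin arrays in the other row, so slide row and tamarixetin treatment cannot be told apart. Of 10 macrophage markers, 9 (Adgre1, Csf1r, Cd68, Itgam, Lyz2, Ptprc, Spi1, Fcgr1 and Cd14) were well above background on all 6 arrays. Their summed linear level was 669 to 676 times the 75th percentile in control and 598 to 666 in flavonol arrays. Fibroblast markers did not pass the filter, and no B cell, epithelial or endothelial marker was above background on all 6 arrays. Of 4 mast cell markers only Tpsb2 passed the filter, with a level of 0.345 to 0.374 times the 75th percentile in control and 0.459 to 0.764 in flavonol arrays, a pooled value of 0.57 that did not pass (trend test adjusted p = 0.174). The part of these markers in the results was not tested.

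With 1 prior variance for all genes, limma called 0 of 17190 genes (0.0%) in the pooled comparison at an adjusted p under 0.05. The smallest adjusted p was 0.0503, and 2655 genes (15.4%) had an unadjusted p under 0.05, 1166 of them higher (6.78%) and 1489 lower (8.66%) in flavonol-treated cells. Centring arrays on their median instead left 2641 such genes but split them into 659 higher and 1982 lower. It shifted the median of all genes by -0.06. Without control replicate 2 the 2655 became 1526, and the count of called genes was 21 without tamarixetin replicate 1 and 5 without tamarixetin replicate 2. When the prior variance was allowed to follow signal and to be robust to outlying genes, an alternative setting called the trend test below, limma called 267 genes (1.55%), 143 higher (0.832%) and 124 lower (0.721%). When only probes well above background on all 8 arrays were kept, 180 of 13678 genes were called (1.32%), 134 higher (0.98%) and 46 lower (0.336%), and 126 genes were called in both of these settings. The words rose and fell are used below for genes that passed the trend test. None of them passed the first test.

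The common changes were small. Among the 267 genes that passed the trend test, 218 were even, meaning that the smaller of the 2 isomer changes was at least 0.5 times the pooled change. This is a rule of size without a test. Their median absolute pooled change was 0.39 on the log2 scale. A fitted pooled value past 2-fold was found in 5 of the 267 (Nqo1, Treml4, Cdnf, Fbxw14 and the transcript ENSMUST00000127253), none of them above background in control, so that these values are not measured folds. Of the 180 genes called with probes above background on all 8 arrays, 0 changed 2-fold. The other 49 were uneven, 48 of them with the larger change in isorhamnetin, and for 47 the difference between the isomers also passed that test. A stricter test asked for a change in both isomers by taking the larger of the 2 p-values of each gene. It called 0 genes (0.0%), with a smallest adjusted p of 0.488, or 0.255 with the trend test. In 236 of the 267 genes the 4 flavonol arrays all lay on one side of both controls, which largely follows from choosing them on these same arrays. Over all genes tested the share was 23.7%, 9.09% above and 14.6% below. For a single gene, an exact permutation test of 4 arrays against 2 has 15 splits and a smallest two-sided p of 0.0667, so it cannot reach 0.05.

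**Figure D1:**
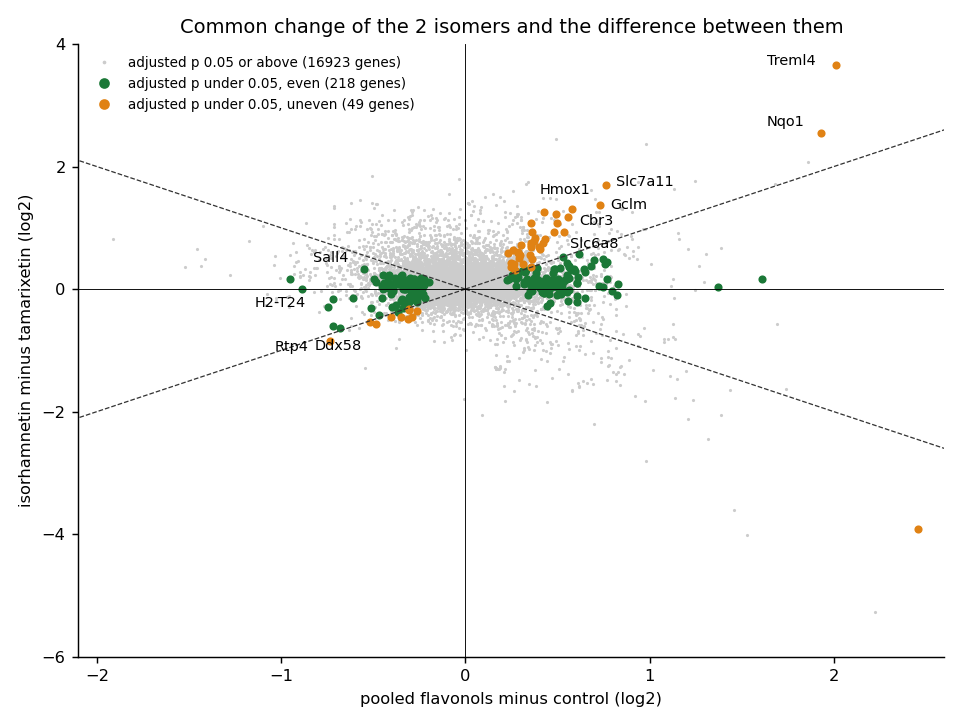
Each point is 1 of 17190 genes, with the pooled flavonol change against control on the x axis and isorhamnetin minus tamarixetin on the y axis, both log2; the colours mark an adjusted p under 0.05 in the trend test, and the dashed lines mark where the isomer difference equals the pooled change. Of the coloured genes, 218 lie between the lines around the x axis and 49 outside, most of them upward, where isorhamnetin gave the larger change. The 5 coloured points beyond 1 on the x axis are genes below background in control.

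A part of the interferon-stimulated genes fell in the pooled comparison. Of 34 listed interferon-stimulated genes 18 were measured. In the trend test 0 rose and 6 fell, namely Rtp4, Ddx58, Isg15, Oasl1, Ifi47 and Irf9, against 0.832% and 0.721% of all genes. The first test gave 11 of the 18 an unadjusted p under 0.05, all lower, against 8.66% of all genes. The list's median pooled change was -0.29, with -0.45 for isorhamnetin and -0.16 for tamarixetin, where the medians of all genes were -0.03, 0.00 and -0.05. The isomer difference passed limma's first test in 1 of the 18, Rtp4. In 8 of the 18 genes all 4 flavonol arrays lay below both controls, a pattern found in 14.6% of all genes and at like shares in some other lists, such as 8 of 20 heat shock, 8 of 21 cholesterol and 10 of 32 lysosome genes.

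Ddx58 encodes RIG-I, the cytosolic sensor of viral RNA. Its level was 1.47 and 1.60 in control, 0.57 and 0.51 with isorhamnetin, and 1.27 and 1.09 with tamarixetin. All 4 flavonol arrays lay below both controls, as the rule for naming such genes required, and those of tamarixetin lay between the other groups. The pooled change was -0.68 (SE 0.07, 95% interval -0.86 to -0.50; limma adjusted p = 0.104, and 0.00564 in the trend test), a level 1.60-fold lower. The isomers' own changes were -1.0 and -0.36, and their difference of -0.64 (95% interval -0.85 to -0.43) had an adjusted p of 0.0521 in limma's first test and 0.00315 in the trend test. Ddx58 was even by the size rule and still differed between isomers in the trend test.

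Isg15, the ubiquitin-like modifier induced by interferon, read 2.34 and 2.51 in control, 1.8 and 1.69 with isorhamnetin, and 2.24 and 2.11 with tamarixetin. By the same rule the flavonol and control arrays did not overlap, although the higher tamarixetin array was only 0.1 below the lower control. Its pooled change was -0.47 (SE 0.07; limma trend test adjusted p = 0.0159). The isomer changes were -0.68 and -0.25. Their difference of -0.43 (95% interval -0.64 to -0.22) had an adjusted p of 0.133 in limma's first test and 0.0242 in the trend test. Rtp4, an interferon-inducible chaperone of membrane receptors, had the largest pooled change of the list, -0.74, and was uneven: its levels were 2.77 and 2.97 in control, 1.74 and 1.69 with isorhamnetin, and 2.67 and 2.44 with tamarixetin. The isomer difference was -0.84 (95% interval -1.09 to -0.59), which passed limma's first test (adjusted p = 0.0433). Ifi47, an interferon-inducible GTPase, changed by -0.34 and -0.23 in the 2 isomers, and Irf9, the DNA-binding part of the ISGF3 complex, by -0.44 and -0.08. Oasl1 changed by -0.51 and -0.07, and a pooled value of -0.13 replaced -0.29 when the edge rows of the array were kept, since a brighter Oasl1 probe lies there.

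Further interferon-linked genes were off the list or did not pass the test. Irgm1 and Irgm2, interferon-inducible GTPases of vacuole defence, fell by 0.40 and 0.48 in the pooled contrast, unevenly, with tamarixetin changes of -0.18 and -0.20. Adar, the RNA-editing deaminase, fell by 0.31 with isomer changes of -0.37 and -0.24. Irf7, the factor that amplifies type I interferon, had a pooled value of -0.42 and did not pass the trend test (adjusted p 0.0539). Usp18, the deconjugase of ISG15, has its probe in the edge rows; with those kept its pooled change was -0.97, made of -1.43 and -0.52 (limma adjusted p = 0.0693). Ifnar1, a chain of the type I interferon receptor, was higher on all 4 arrays, with a pooled value of 0.30 that did not pass (trend test adjusted p = 0.0721).

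Promoters of the genes named as even or uneven, some of them by smallest p, were searched for 4 motifs on both strands. RefSeq windows of the GRCm38.p6 build were used, which run from 250 bases before to 50 after each start. A window was at hand for 25 of 38 genes. A gene with several windows, such as Numb with 3, counted when any of them matched. The shares of all windows count each window once, so the 2 measures are unlike. The interferon-stimulated response element (TTTCNN followed by TTTC) was in 5 of 13 genes with a lower pooled value (Ddx58, Isg15, Fcgr4, Irgm1 and Irgm2) and 1 of 12 with a higher one (Numb), and in 3.44% of all 32851 windows. Neighbouring matches can overlap, as they do in Isg15 and Irgm1. The 250 bases upstream of those genes are shown because each holds more than 1 match, with the matches in capitals on the gene's strand, where the motif reads as its reverse complement.
Isg15, chr4:156200819-156201068, minus strand: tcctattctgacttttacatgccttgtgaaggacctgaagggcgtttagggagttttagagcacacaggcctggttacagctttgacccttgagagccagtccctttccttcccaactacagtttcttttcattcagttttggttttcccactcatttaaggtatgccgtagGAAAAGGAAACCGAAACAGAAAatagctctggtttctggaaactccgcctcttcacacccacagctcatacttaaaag
Irgm1, chr11:48871421-48871670, minus strand: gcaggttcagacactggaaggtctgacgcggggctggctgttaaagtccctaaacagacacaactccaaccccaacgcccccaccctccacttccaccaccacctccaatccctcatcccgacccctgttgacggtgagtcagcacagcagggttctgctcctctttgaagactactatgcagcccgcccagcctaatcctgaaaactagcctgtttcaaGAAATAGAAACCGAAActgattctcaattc
In Isg15 the 3 matches run from 78 to 57 bases before the start, and in Irgm1 the 2 matches from 30 to 15. The antioxidant response element core TGACNNNGC was in 4 of the 12 (Mitf, Kcnq1ot1, Plekho1 and Gclm) and 2 of the 13, against 12.4% of all windows. The aryl hydrocarbon receptor core GCGTG was in 5 of 12 and 5 of 13, against 32.4%, and the E-box CACGTG in 1 of 12 and 0 of 13, against 7.15%. A match is a string of letters and does not show binding.

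Inflammatory mediators were mixed, with some genes lower in both isomers. Of 38 listed NF-kB mediators 29 were measured. In the trend test 3 fell (Il1b, Cxcl2 and Nos2) and 1 rose (Ptgs2), against 0.721% and 0.832% of all genes. The list's median was -0.12 pooled, -0.12 for isorhamnetin and -0.14 for tamarixetin. In 8 genes all 4 flavonol arrays lay below both controls and in 1, Nfkbie, above, against 14.6% and 9.09% of all genes. By unadjusted p, 7 were lower and 2 higher, against 8.66% and 6.78% of all genes, so the higher count is near the share of all genes.

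Il1b, the cytokine interleukin 1 beta, read 0.38 and 0.17 in control, -0.88 and -0.61 with isorhamnetin, and -0.02 and -0.26 with tamarixetin. The flavonol and control arrays did not overlap, as the naming rule required, and the replicates of each group lay 0.21 to 0.27 apart. It fell by 0.72 (SE 0.14, 95% interval -1.05 to -0.38; limma adjusted p = 0.124, and 0.0262 in the trend test), or 1.65-fold, and the isomer difference of -0.61 did not pass (trend test adjusted p = 0.0891). Nos2, the inducible nitric oxide synthase, was among the most equal: 3.80 and 3.80 in control, 3.56 and 3.44 with isorhamnetin, and 3.51 and 3.44 with tamarixetin. Its isomer difference was 0.03, with a 95% interval from -0.14 to 0.19. Cxcl2, a neutrophil-attracting chemokine, changed by -0.43 and -0.24.

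Csf3, the cytokine G-CSF, fell by nearly the same amount in both isomers. Its level was -1.47 and -1.50 in control, -2.17 and -2.16 with isorhamnetin, and -2.11 and -1.92 with tamarixetin. The pooled change was -0.61 (SE 0.08; limma adjusted p = 0.104, and 0.0223 in the trend test) and the isomer difference -0.15 (95% interval -0.36 to 0.07). Csf3 is dim, and normexp background correction with its offset gave -0.38. Tnf, the cytokine tumour necrosis factor, had a pooled value of -0.13 with overlapping groups (adjusted p = 0.46 in limma's first test). Ptgs2, which makes prostaglandin precursors, went with isorhamnetin alone in size, 0.84 against 0.02, and the difference of 0.81 passed limma's first test (adjusted p = 0.0166).

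H2-T24, Cd74 and Scimp were among the genes that fell. H2-T24, a class I-like histocompatibility gene, read -1.70 and -1.75 in control, -2.56 and -2.67 with isorhamnetin, and -2.31 and -2.34 with tamarixetin. Its pooled change of -0.75 (SE 0.06, 95% interval -0.89 to -0.60) was tied for the smallest adjusted p of limma's first test, 0.0503, and gave 0.0242 in the trend test. With the edge rows kept another probe was used and the value was -0.47, and normexp gave -0.42. Cd74, the invariant chain of class II molecules, fell by 0.29 with isomer changes of -0.36 and -0.23. Of 8 dendritic cell markers Cd74 and H2-Ab1 alone passed the filter. H2-Ab1, a class II chain, had a pooled value of 0.17 with isomer values of -0.13 and 0.48 and did not pass (trend test adjusted p = 0.886). The summed level of both, which is mostly Cd74, was 19.7 to 20.2 in control and 15.1 to 17.9 in flavonol arrays. Scimp, a membrane adaptor of antigen-presenting cells, fell by 0.51, from 1.01 and 1.03 to 0.36 and 0.34 with isorhamnetin and 0.71 and 0.62 with tamarixetin.

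Of 40 listed macrophage surface receptors 27 were measured. Fcgr4 and Tlr7 fell and Cd274 rose in the trend test, where 0.721% of all genes fell and 0.832% rose. By unadjusted p, 7 were lower and 3 higher, against 8.66% and 6.78% of all genes. Tlr7, an endosomal sensor of single-stranded RNA, changed by -0.23 in each isomer, with a difference of 0.00 (95% interval -0.14 to 0.14). Fcgr4, an activating IgG receptor, changed by -0.79 and -0.25. Cd274, the checkpoint ligand PD-L1, was uneven, 0.80 against 0.04. Cd4, which some myeloid cells carry as well as T cells, fell by 0.44 with isomer changes of -0.39 and -0.49; of 6 T or NK cell markers only Cd4 and Lck were above background on all 6 arrays, and the summed level of the markers that passed was 6.07 to 6.40 in control and 4.86 to 5.42 in flavonol arrays. Of the neutrophil markers, Elane, neutrophil elastase, had a pooled value of -0.76 that did not pass (trend test adjusted p = 0.159), and S100a8, part of calprotectin, -0.18.

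Several further genes fell, some by nearly the same amount with both compounds. Gpr157, an orphan receptor, changed by -0.45 in each, with an isomer difference of 0.01 (95% interval -0.24 to 0.25). Amz1, an archaemetzincin metalloprotease, changed by -0.40 and -0.45, Myo3b, a class III myosin, by -0.41 and -0.48, and Sun5, a nuclear envelope protein, by -0.42 and -0.48. Arl4c, a small GTPase, changed by -0.32 and -0.33, and Stom, the membrane protein stomatin, by -0.26 and -0.30. Lsm14b, an RNA-binding protein, and Sall4, a zinc finger factor of stem cells, had the larger value with tamarixetin, -0.57 against -0.33 and -0.72 against -0.38, and neither difference passed (trend test adjusted p 0.169 and 0.265). Hmgb1, a chromatin protein that acts as an alarm signal outside cells, fell by 0.29 from a high level of 6.44 and 6.36, with isomer changes of -0.21 and -0.36. Aplp1, a relative of the amyloid precursor, had -0.36 and -0.35 but did not pass the trend test (adjusted p = 0.166). Slc9a3r2, a PDZ scaffold, fell by 0.32 with isomer changes of -0.45 and -0.18.

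**Figure D2:**
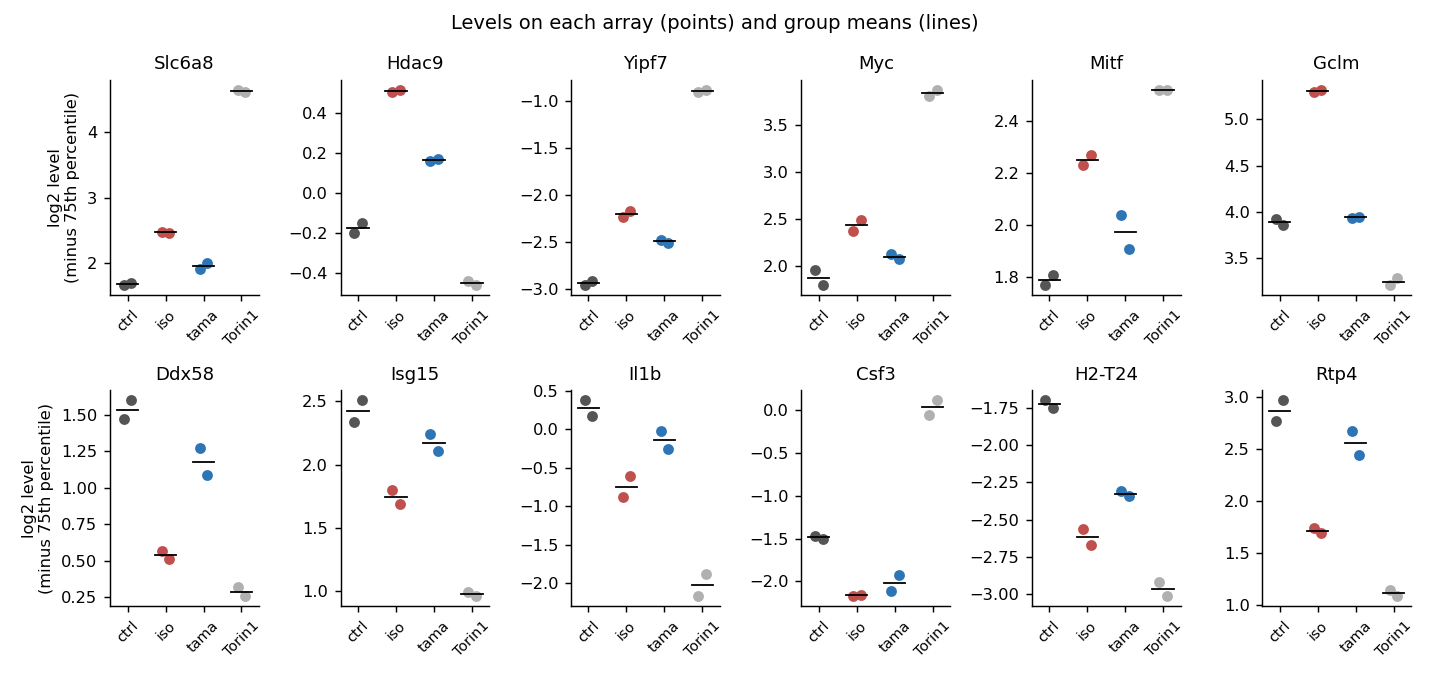
Each panel shows 1 gene, with its log2 level relative to the array's 75th percentile on the y axis for the 2 arrays (points) and mean (line) of control, isorhamnetin (iso), tamarixetin (tama) and Torin1; the axes do not start at 0. In all 12 panels the 4 flavonol arrays lie on the same side of both controls, which the rule for naming these genes required. For Gclm the tamarixetin arrays are only 0.02 or more above.

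Of genes with a RefSeq symbol, 21 rose evenly in the trend test and 69 fell evenly. The level of Slc6a8, the creatine transporter, was 1.67 and 1.70 in control, 2.48 and 2.47 with isorhamnetin, and 1.92 and 2.00 with tamarixetin. It rose by 0.53 (SE 0.05, 95% interval 0.41 to 0.65; limma adjusted p = 0.0606, and 0.00202 in the trend test), or 1.44-fold. The isomer difference of 0.52 passed limma's first test (adjusted p = 0.0336), so the rise with tamarixetin, 0.27, was the smaller. A second Slc6a8 probe gave a pooled value of 0.21. Hdac9, a class IIa histone deacetylase, read -0.20 and -0.15 in control, 0.51 and 0.52 with isorhamnetin, and 0.16 and 0.17 with tamarixetin. It rose by 0.51 (SE 0.04; limma trend test adjusted p = 0.00957).

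Myc, the growth-promoting transcription factor, rose by 0.39 (SE 0.07; limma adjusted p = 0.114, and 0.019 in the trend test). Its level was 1.95 and 1.79 in control, 2.37 and 2.49 with isorhamnetin, and 2.12 and 2.07 with tamarixetin. The tamarixetin arrays were 0.12 to 0.33 above the controls, which themselves lay 0.16 apart. Myc changed by 0.56 with isorhamnetin and by 0.22 with tamarixetin. The isomer difference of 0.34 had an adjusted p of 0.17 in limma's first test and 0.0479 in the trend test, so the rise with tamarixetin was the smaller. Of 25 genes measured in the list of ribosome biogenesis and MYC, Myc was the only one called in the trend test, and the list's median was 0.00. Among 22 measured immediate early and MAP kinase feedback genes 3 rose in that test, against 0.832% of all genes. They were Myc, Egr2 (isomer changes of 0.30 and 0.25) and Klf4 (0.55 and 0.04). By unadjusted p, 3 of the 22 were higher and 3 lower, against 6.78% and 8.66% of all genes. Rgs16 and Rcan1, feedback regulators of G protein and calcineurin signalling, rose by 0.25 each.

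Mitf, a transcription factor of lysosomal and melanocyte genes, rose by 0.33, from 1.77 and 1.81 to 2.23 and 2.27 with isorhamnetin and 2.04 and 1.91 with tamarixetin. With the edge rows kept a brighter Mitf probe replaced it and the value was 0.12. In the autophagy and MiT/TFE list 25 genes were measured and 2 rose, Mitf and the uneven Sqstm1, against 0.832% of all genes. The list's median was -0.05. Gpr84, a receptor of medium-chain fatty acids, rose by 0.31 with isomer changes of 0.45 and 0.16. The difference of 0.30 passed the trend test (adjusted p = 0.0263). Dcc, the netrin receptor, rose equally, 0.43 and 0.46, with an isomer difference of -0.02 (95% interval -0.22 to 0.18). Plekho1 (0.39 and 0.19), Cmah, the enzyme that makes the sialic acid Neu5Gc (0.37 and 0.28), and the noncoding RNA Kcnq1ot1 (0.40 and 0.29) rose as well. The dim genes Yipf7 (0.60) and Numb (0.59) rose too, and normexp reduced them to 0.05 and 0.32.

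The antioxidant response met the pooled contrast through isorhamnetin. Of 34 listed NRF2 genes 28 were measured. In the trend test 9 rose and 0 fell, against 0.832% and 0.721% of all genes. By unadjusted p under 0.05, 12 passed, all higher, against 6.78% of all genes. The list's median was 0.12 pooled, 0.35 for isorhamnetin and -0.04 for tamarixetin, and the isomer difference passed limma's first test in 12 of the 28, all higher with isorhamnetin, where 0.506% of all genes did so. Both counts include Nqo1, which was not well above background in control or with tamarixetin. Gclm, the modifier subunit of the first enzyme of glutathione synthesis, read 3.92 and 3.86 in control, 5.29 and 5.32 with isorhamnetin, and 3.94 and 3.95 with tamarixetin. The 4 flavonol arrays did not overlap with control, as the naming rule required, the tamarixetin arrays by 0.02. Its pooled rise of 0.73 (SE 0.05, limma adjusted p = 0.0503, and 0.000189 in the trend test) is thus an average of 1.41 and 0.05. The isomer difference was 1.37 (95% interval 1.23 to 1.5; limma adjusted p = 0.0041). The stretch upstream of Gclm is shown because it holds the antioxidant response element core, in capitals as its reverse complement, 134 to 126 bases before the start.
Gclm, chr3:122245307-122245556, plus strand: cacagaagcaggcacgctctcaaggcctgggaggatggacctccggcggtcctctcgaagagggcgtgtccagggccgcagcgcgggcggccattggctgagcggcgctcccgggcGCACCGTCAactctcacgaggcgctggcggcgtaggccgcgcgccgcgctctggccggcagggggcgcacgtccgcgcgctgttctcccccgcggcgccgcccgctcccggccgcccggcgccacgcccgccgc
Slc7a11, the cystine carrier that supplies glutathione synthesis, had isomer changes of 1.61 and -0.08. Hmox1, the haem-degrading enzyme, had 1.24 and -0.07, Cbr3, a carbonyl reductase, 1.14 and -0.03, and Txnrd1, thioredoxin reductase, 0.59 and -0.02. Cat, catalase, read 1.0 and 0.07, and Blvrb, biliverdin reductase B, 0.74 and 0.05. In all these genes the pooled change is about the mean of a rise and a value near 0.

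Nqo1, a quinone reductase, was well above background only on the isorhamnetin arrays, at -2.95 and -2.61, against -5.87 and -6.10 in control and -5.34 and -5.32 with tamarixetin, where it was not well above background. Against the detection limit it was at least 2.21-fold higher with isorhamnetin than in control and at least 1.22-fold higher than with tamarixetin. Treml4, a myeloid receptor, had the same pattern, at least 5.13-fold and at least 2.84-fold. The fitted pooled changes of these genes, 1.93 and 2.01, rest on signals below background and fell to 0.10 and 0.44 with normexp. The aryl hydrocarbon receptor list had 7 measured genes and a median of -0.05. Of these Nqo1 alone was called in the trend test, against 1.55% of all genes. Its classical targets Cyp1a1 and Cyp1b1 were not well above background, and Tiparp, a further target, had a pooled value of -0.05 with a 95% interval from -0.19 to 0.08.

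The other lists had pooled medians from -0.12 for hypoxia and glycolysis to 0.11 for the 9 measured osteoclast and cell fusion genes, with 0.10 for the 10 metal response genes and -0.03 for all genes. Of the osteoclast genes 0 passed the trend test and 2 had an unadjusted p under 0.05, both higher, against 6.78% of all genes. Ctsk, among them, had isomer values of 0.50 for isorhamnetin and 0.00 for tamarixetin. No list of the 20 had a gene called in the first test (0.0%), 15 had at least 1 gene called in the trend test and 5 had none. Over all genes tested, 0.832% rose and 0.721% fell in the trend test. Of 29 hypoxia and glycolysis genes, 0 rose and 1, Ankrd37, fell, and the list's median was -0.12 (-0.14 and -0.09). Ankrd37 changed by -0.55 and -0.18, and the isomer difference of -0.37 passed the trend test (adjusted p = 0.0242). Ndrg1, a hypoxia-responsive gene, had -0.63 and -0.55 but replicates up to 0.58 apart. Of 21 cholesterol genes none passed the trend test, 3 had an unadjusted p under 0.05 and were lower, Mvd and Fdps among them, against 8.66% of all genes, and the median was -0.09. Of 32 lysosome genes Lipa, the acid lipase, rose (0.83 and -0.10), and the median was -0.06. Of 32 replication and mitosis genes none passed, and pooled values ran from -0.13 to 0.13. Ppard, a lipid-sensing nuclear receptor, fell by 0.40 with isomer changes of -0.54 and -0.25, and Ccnd3, cyclin D3, by 0.26 with -0.28 and -0.25. The medians of the amino acid response list (0.02) and the flavonoid conjugation list (0.02) became -0.04 each with median centring, which lowered all genes alike. The same centring gave 0.06 for the NRF2 list, -0.35 for the interferon list and -0.18 for the NF-kB list, and normexp gave -0.19 for the interferon list.

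**Figure D3:**
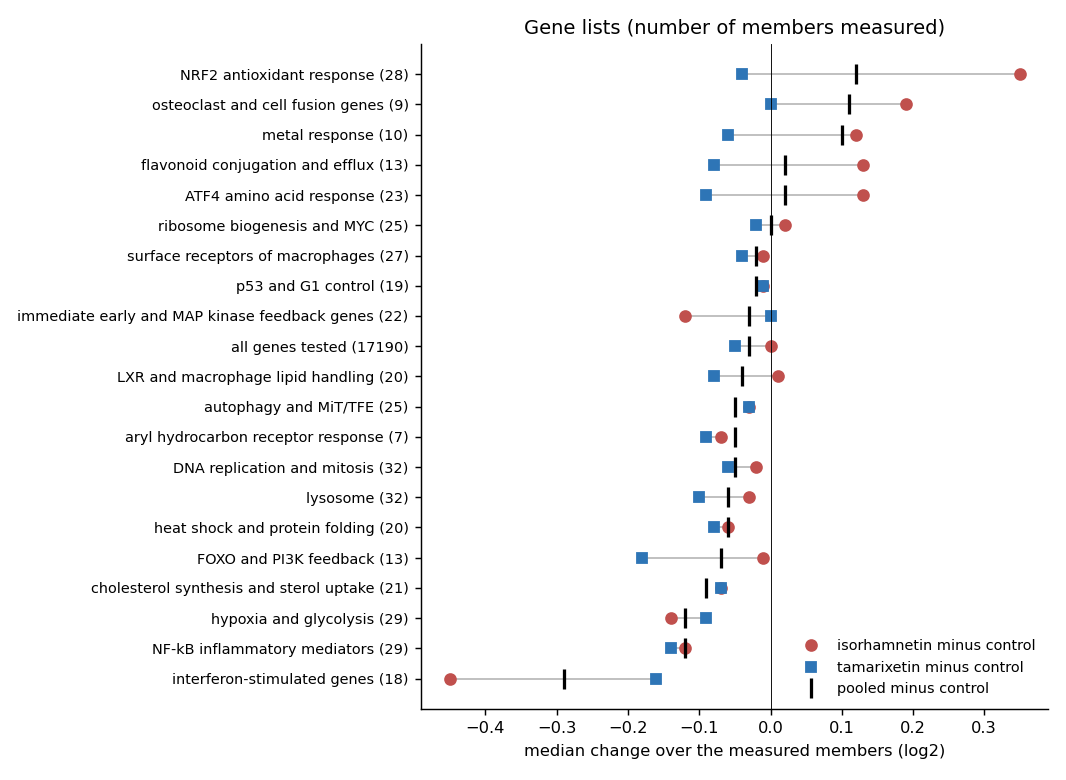
For each gene list and for all genes tested, the median log2 change against control is shown for isorhamnetin (circles), tamarixetin (squares) and the pooled contrast (bars), with the number of measured members in brackets. Both isomers lie to the left in the interferon-stimulated list (-0.45 and -0.16) and on opposite sides of 0 in the NRF2 list (0.35 and -0.04); both use the same control arrays.

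The isomers were compared directly, 1 pair at the same dose and time, with p-values adjusted over genes. Limma called 99 genes (0.576%), 87 higher (0.506%) and 12 lower (0.0698%) with isorhamnetin, and 189 (1.1%) in the trend test. This contrast uses no control array. The isomers lay in different rows of the slide, so compound and slide row cannot be told apart in it. The 99 became 12 without isorhamnetin replicate 1, 0 without isorhamnetin replicate 2, 21 without either control array and 12 without either Torin1 array, and 116 and 119 without tamarixetin replicate 1 and 2. Against control, limma's first test called 87 genes for isorhamnetin (0.506%), 70 higher (0.407%) and 17 lower (0.0989%), and 0 for tamarixetin (0.0%), for which 2471 genes (14.4%) had an unadjusted p under 0.05 and the smallest adjusted p was 0.17. These 2 contrasts share their control arrays, so the likeness of their values is no independent support. In the trend test, tamarixetin against control passed for Dcc, Lsm14b and Hmgb1 among the named genes (adjusted p = 0.0486 each). For Dcc and Lsm14b isorhamnetin against control passed as well (trend test adjusted p = 0.0106 and 0.0351). Of the 218 even genes in the trend test, 6 differed between isomers in that test, and for the rest no more can be said than their intervals allow.

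Most genes that rose evenly had no RefSeq symbol, a division made after the values were seen and described without a test. Of 104 even genes that rose in the trend test, 21 had a symbol, 34 were known by accessions of full-length cDNA clones that start with AK, and 36 by Ensembl transcript names. The 17190 genes tested held 10621 with a symbol, 1501 AK targets and 2359 Ensembl transcripts. Of the 39 uneven genes that rose, 34 had a symbol and 0 an AK accession. Over all 1501 AK targets, 18.5% were higher and 5.53% lower at an unadjusted p under 0.05, against 3.72% and 8.29% of the 10621 genes with a symbol. AK targets were dimmer, with a median control level of -2.30 against 1.54. Among targets with a control level below 0 the shares were 19.6% and 4.07% for AK targets and 4.88% and 10.5% for genes with a symbol. Ensembl transcripts of that level were near the AK targets, with 18.7% of 1408 higher and 5.33% lower. At a control level of 0 or above, as many of the 248 AK targets were higher as lower, 12.9% each, against 3.13% and 7.2% of genes with a symbol. Of 951 Ensembl transcripts of that level, 5.26% were higher and 10.6% lower. The median pooled change of AK targets was 0.07 (0.12 for isorhamnetin and 0.03 for tamarixetin), and 0.01 with median centring, 0.03 with quantile normalisation and 0.02 with normexp. The shares higher and lower were 13.3% and 9.79% with median centring, 15.6% and 7.99% with quantile normalisation, and 11.7% and 6.93% with normexp. With probes above background on all 8 arrays they were 25.3% and 8.12% of 936 AK targets. In that setting 4.59% of genes with a symbol were higher and 9.67% lower. The median log2 change of AK targets with Torin1 against control was 0.25. As examples, AK042310 read -3.37 and -3.52 in control, -2.59 and -2.74 with isorhamnetin, and -2.75 and -2.52 with tamarixetin, and AK047643 had isomer changes of 0.61 and 0.34. Targets named by genome coordinates went the other way at higher signal: of 313 with a control level of 0 or above, 29.4% were lower and 3.83% higher. The part of probe signal, background and RNA class in this split was not tested beyond the division by level and these settings.

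**Figure D4:**
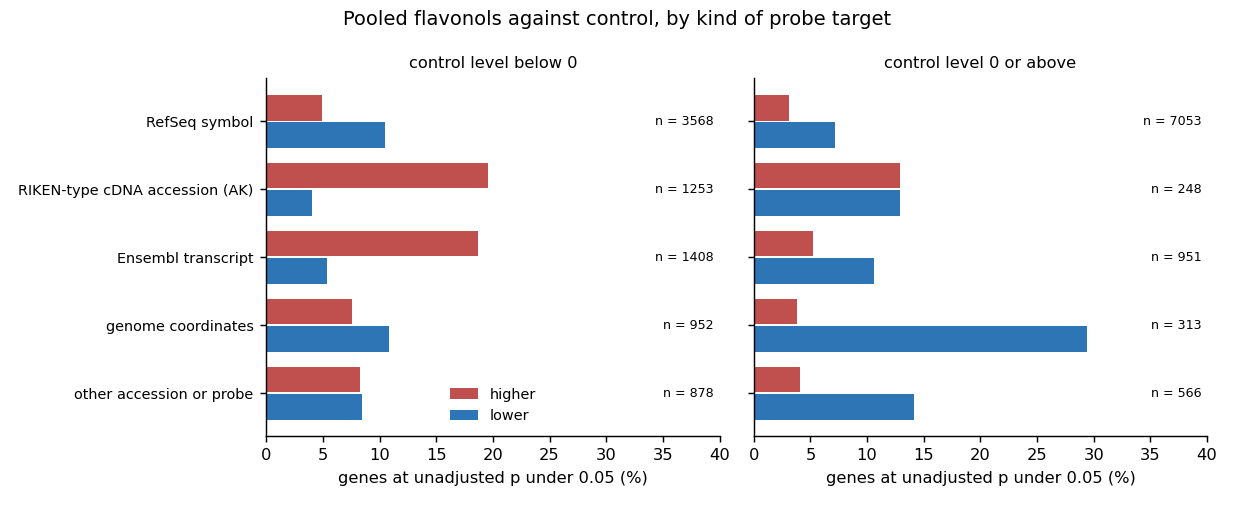
Bars give the percentage of targets at an unadjusted p under 0.05 in the pooled comparison, higher in red and lower in blue, for each kind of target name, split by a control level below 0 (left) and of 0 or above (right); n is the number of targets. AK targets of low signal stand at 19.6% higher and 4.07% lower, and genes with a symbol at 4.88% and 10.5%. Ensembl transcripts of low signal stand at 18.7% and 5.33%. At 0 or above AK targets stand at 12.9% in both directions.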

How the data were processed

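RNA of 8 cultures was hybridised to 1-colour Agilent arrays, all on 1 slide in 1 scan, so no slide or scan block was run. Per the file headers, Feature Extraction 10.7.1.1 gave the processed signal, an intensity after background subtraction and detrending within the array; the authors' deposited log2 values equal log2 of it minus the array's 75th percentile and the probe's median, within 0.01 for 99.8% of 56605 probes. The same scaling was used here. Probes in the first and last 48 of 384 spot rows were left out (42526 remained), as were 90 with outlier spots. A probe was kept when well above background on both arrays of a group, and the brightest probe stood for a gene: 17190 genes, 10621 with a symbol matched by RefSeq accession (GRCm38.p6, used for names and promoters).

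Limma 3.58.1 in R 4.3.3 fitted group means to all 8 arrays (4 residual degrees of freedom, 1.81 prior) with two-sided p-values adjusted by Benjamini-Hochberg, after a check on simulated data. The number of arrays limits the precision. The isomers and lists were chosen with earlier results of these data known. Named genes were the largest even and uneven changes, up to 3 called members per list and a panel of 16; since the first test called 0 genes, the nearest by p were named, the same rule was applied to the trend test after its counts were seen, and further genes were chosen after their values were seen: Cxcl2, Nos2, Cd74, Irf9, Ifi47, Oasl1, Adar, Tlr7, Irf7, Gclc, Gsr, Pgd, Cbr3, Cat, Egr2, Klf4, Rgs16, Rcan1, Treml4, Ankrd37, S100a8, Elane, Hmgb1, Arl4c, Stom, Cd274, AK042310 and AK047643, and Ifnar1, Nfkbie, Mvd, Fdps, H2-Ab1 and Tpsb2 from list and marker tables. Egr1 and Gpnmb of the panel have probes in the edge rows.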

Additional observations from a re-analysis of the deposited data

Results flagged for a closer look

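Direct tests of isorhamnetin minus tamarixetin, with limma's first test and adjusted p under 0.05, marked 20 of the genes chosen for naming as different between the isomers. Over all genes tested the share was 0.576%. Some of the 20 were named after their values were seen, so the count is no result about the named genes. In 18 of them both isomers were measured above background, 16 higher and 2 lower with isorhamnetin. The log2 difference was 1.69 for Slc7a11, 1.37 for Gclm, 1.31 for Hmox1, 1.17 for Cbr3, 0.93 for Cat, 0.69 for Blvrb and 0.61 for Txnrd1. It was 0.72 for Gclc, the catalytic subunit of the first enzyme of glutathione synthesis, and 0.59 for Gsr, glutathione reductase. For Pgd, an enzyme of the pentose phosphate pathway, it was 0.58. It was 0.93 for Lipa, 0.81 for Ptgs2, 0.78 for Sqstm1, which carries cargo into autophagy, 0.76 for Cd274 and 0.50 for Ctsk, the bone-degrading protease cathepsin K. Slc6a8 rose in the pooled comparison and still differed by 0.52. Rtp4 and Eps8, an actin regulator, were lower with isorhamnetin, with differences of -0.84 and -0.46. The other 2, Nqo1 and Treml4, were not above background with tamarixetin, and were at least 1.22-fold and at least 2.84-fold higher with isorhamnetin. Each gene's isorhamnetin arrays lay beyond both tamarixetin arrays, which largely follows from their choice by this same contrast. Here too, compound and slide row cannot be told apart.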

How the results depend on the processing

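A group size of 2 arrays, and dim signal for many evenly raised targets, limit the pooled comparison. Its count of called genes, 0, became 267 in the trend test, 180 with probes above background on all 8 arrays, 13 with edge rows kept, 6 with quantile normalisation and 1 with normexp; leaving out 1 array gave 0 to 21 (21 and 5 without tamarixetin replicate 1 and 2). Genes at unadjusted p under 0.05 ranged from 1526 (without control replicate 2, where 911 were higher and 615 lower) to 2830 over left-out arrays, against 2655, and no filter gave 1968 higher and 1138 lower. Genes differing between isomers, 99, became 12 in the fit of 6 arrays without Torin1, 178 with edge rows kept, 31 with median centring, 189 in the trend test and 11877 of 35974 without a filter, where probes below background were counted; leaving out 1 array gave 0 to 119 (0 without isorhamnetin replicate 2). Same-numbered replicates did not deviate together (correlations from -0.17 to 0.13), so the numbers do not pair the arrays; a replicate block gave 0 pooled calls, 2313 genes at unadjusted p under 0.05 and 2 isomer differences. The stricter test of a change in both isomers, by the larger of the 2 p-values, called 0 genes in every setting in which it was run. Normexp adds an offset, which by construction shrinks changes of dim genes. Of the named genes Dnajb4, a chaperone, reversed, from -0.24 to 0.14 with edge rows kept, where another probe was used.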

Other observations

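Values of 2 panel genes outside the main comparison were as follows, with the edge rows kept. Egr1, an immediate early transcription factor, had isomer changes of -0.93 and -0.10 and a pooled value of -0.51 (limma adjusted p = 0.103). Gpnmb, a glycoprotein of lysosome-rich macrophages, had 0.53 with isorhamnetin and -0.66 with tamarixetin, so that the pooled value was -0.06. Cdnf and Fbxw14 were above background on both isorhamnetin arrays and on neither control nor tamarixetin array, yet their measured tamarixetin means, -4.0 and -4.11, were near the isorhamnetin means of -3.97 and -3.95, and no fold is given.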
